A study of Mus musculus with 9 samples.

Results

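The SWI/SNF chromatin remodelling complex has a set of subunits that recur in most of its assemblies, and 10 genes of this kind were followed here after knockdown of Brg1, the ATPase of the complex. They are Smarcb1, Smarcc1, Smarcc2, Smarcd1, Smarcd2, Smarcd3, Smarce1, Actl6a, Ss18 and Bcl7b. They were taken by name from the probe sets to which the platform annotation gives 1 gene symbol. All 10 were measured, on 12 probe sets, among 19937 genes in all; Smarce1 has 3 probe sets and the other members have 1 each. The cells were RN2, which are murine leukaemia cells of the acute myeloid type carrying MLL-AF9 and NrasG12D, and their RNA was hybridised to 9 arrays. The 3 hairpins against Brg1, named Brg1sh_3232, Brg1sh_3364 and Brg1sh_4935, had 2 arrays each. The control hairpin, Rluc, is directed at Renilla luciferase and had 3 arrays. The sample titles of every group name TRMPV as the construct. Every group received doxycycline at 1 ug/ml for 96 h, so the control shares the drug and the vector name. The labels of the Rluc arrays add the term TtTMPV to the cell line name, which the knockdown arrays lack, so this difference in label runs with the comparison. Nothing in the labels says whether arrays of a group came from separate cultures, and p-values therefore measure the spread between arrays, which may be technical.

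SWI/SNF complexes use the energy of ATP, through Brg1 or its relative Brm, to slide or evict nucleosomes. The Smarcc proteins form the scaffold on which the Smarcd proteins, Smarce1 and Smarcb1 assemble, and the ATPase module with its actin-related proteins docks onto that core. Canonical BAF, PBAF and non-canonical BAF differ in the subunits they hold, and not every assembly holds every core subunit. Paralogues such as Smarcd1, Smarcd2 and Smarcd3 fill the same place in different complexes. In MLL-rearranged leukaemia, Brg1 is known to be needed for the leukaemic cells to keep dividing.

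The promoters of the 4 members that were called changed are printed here because these genes moved with the knockdown, 3 upward and 1 downward. Each run is 300 bases, from 250 before the annotated start to 50 after it, from RefSeq on GRCm38.p6, all on the plus strand of the assembly. Bcl7b lies at chr5:135168122-135168421, Smarcc2 at chr10:128458986-128459285, Smarcd1 at chr15:99702037-99702336 and Actl6a at chr3:32708296-32708595. Capitals mark matches, on either strand, to a GC box (GGGCGG or CCGCCC), an E-box (CACGTG), an ETS core (CCGGAAG or CTTCCGG) or an E2F core (TTCCCGC or GCGGGAA).
Bcl7b: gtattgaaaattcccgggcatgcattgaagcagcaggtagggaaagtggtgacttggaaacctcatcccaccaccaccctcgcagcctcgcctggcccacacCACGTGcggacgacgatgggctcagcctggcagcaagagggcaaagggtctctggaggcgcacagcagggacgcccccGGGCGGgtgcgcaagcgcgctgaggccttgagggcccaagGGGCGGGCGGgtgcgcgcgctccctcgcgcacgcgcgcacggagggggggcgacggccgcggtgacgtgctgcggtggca
Smarcc2: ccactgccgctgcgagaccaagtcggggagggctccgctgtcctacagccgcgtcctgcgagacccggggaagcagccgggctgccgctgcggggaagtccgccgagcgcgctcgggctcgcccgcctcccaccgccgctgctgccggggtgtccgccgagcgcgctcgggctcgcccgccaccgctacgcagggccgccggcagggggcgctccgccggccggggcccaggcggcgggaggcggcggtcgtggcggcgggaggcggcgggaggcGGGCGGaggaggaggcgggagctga
Smarcd1: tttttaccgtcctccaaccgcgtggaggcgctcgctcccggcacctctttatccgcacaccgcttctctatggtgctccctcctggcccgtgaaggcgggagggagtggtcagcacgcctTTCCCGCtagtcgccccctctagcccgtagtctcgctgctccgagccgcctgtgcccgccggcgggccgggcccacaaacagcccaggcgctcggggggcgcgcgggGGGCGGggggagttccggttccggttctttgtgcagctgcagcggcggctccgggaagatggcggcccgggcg
Actl6a: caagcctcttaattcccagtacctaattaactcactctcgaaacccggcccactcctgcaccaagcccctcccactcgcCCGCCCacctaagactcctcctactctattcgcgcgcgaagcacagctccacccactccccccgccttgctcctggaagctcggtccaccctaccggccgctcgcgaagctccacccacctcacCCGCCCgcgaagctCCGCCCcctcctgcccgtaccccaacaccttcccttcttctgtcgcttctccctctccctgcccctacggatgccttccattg

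In Bcl7b 2 of the 3 GC boxes share letters, and no letter in any member's promoter belonged to more than 1 of the 4 motifs. The table matched 8 members; Smarce1 and Ss18 were not matched. A GC box stood in 8 of these 8 promoters, against 35.7% of 32851 promoters of the same length. The E-box, the sequence that Myc and its partners bind, was found in 1 of 8, Bcl7b, against 7.15% of all promoters. An ETS core was present in 1 of 8, Smarcc1 (8.86% of all), and an E2F core in 2 of 8, Smarcb1 and Smarcd1 (4.6% of all). The members' promoters had a median GC content of 67.8% and a median of 32 CpG dinucleotides, where all promoters had 52.7% and 7. Smarcd2 had the fewest CpG dinucleotides, 4, and Smarcc2 the most, 48. Actl6a, which fell, Bcl7b, which rose, and Smarcb1, which was not called, each hold 3 GC boxes.

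Values are log2 expression after RMA, and array medians lay between 7.39 and 7.49. The targeted gene, Smarca4, stood at 10.67 to 10.90 on the knockdown arrays and 11.77 to 11.79 on the Rluc arrays, a remaining level of 49.5% (95% interval 45.7 to 53.5). Markers of myeloid progenitors were present, with 10 of 10 above the median of all values. The 5 measured T and B cell markers and the 2 measured erythroid markers, of lists of 6 and 5, lay below that median. Macrophage and monocyte markers moved with the knockdown. Of 10, 9 rose and 0 fell, and their mean level per array was 10.75 to 11.11 with Brg1 hairpins and 10.25 to 10.30 with Rluc; Mrc1 (5.64) and Mertk (6.02) were the 2 below the median. Of 10 progenitor markers 4 rose and 4 fell, and of 8 late neutrophil markers 4 rose and 1 fell. Of 6 stromal and epithelial markers, 5 lay above the median and 2 rose, Pdgfrb (log2 change 0.39) and Pecam1 (0.56). Col1a1, Col1a2, Epcam and Krt8 were not called. The part of these shifts in the changes of SWI/SNF subunits was not tested, and in bulk RNA fewer cells of a type and less RNA per cell cannot be told apart.

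After Brg1 knockdown, 3 shared core subunits rose, 1 fell and 6 were not called. Bcl7b rose to 121% of the Rluc level, Smarcd1 to 112% and Smarcc2 to 111%, while Actl6a fell to 88.1%. Calls were made at a limma adjusted p below 0.05 for the mean of the 3 hairpins minus Rluc, with adjustment over all 19937 genes. By that rule 13.3% of all genes rose and 15% fell, 28.3% together, so the 4 calls among 10 genes are read against a background in which calls were common. The members' median log2 change was -0.01 and the median of its absolute size 0.08, beside 0.00 and 0.07 over all genes. On the arrays themselves, 3 members had all 6 knockdown values above all 3 Rluc values, where 10.7% of all genes did, and 1 had them all below, where 12.1% did (22.8% on either side). These were the same 4 genes that were called. With arrays centred on their medians, the split among members went from 3 higher and 1 lower to 1 and 1, and among all called genes the share of rises went from 47.1% to 36.5%.

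**Figure D1:**
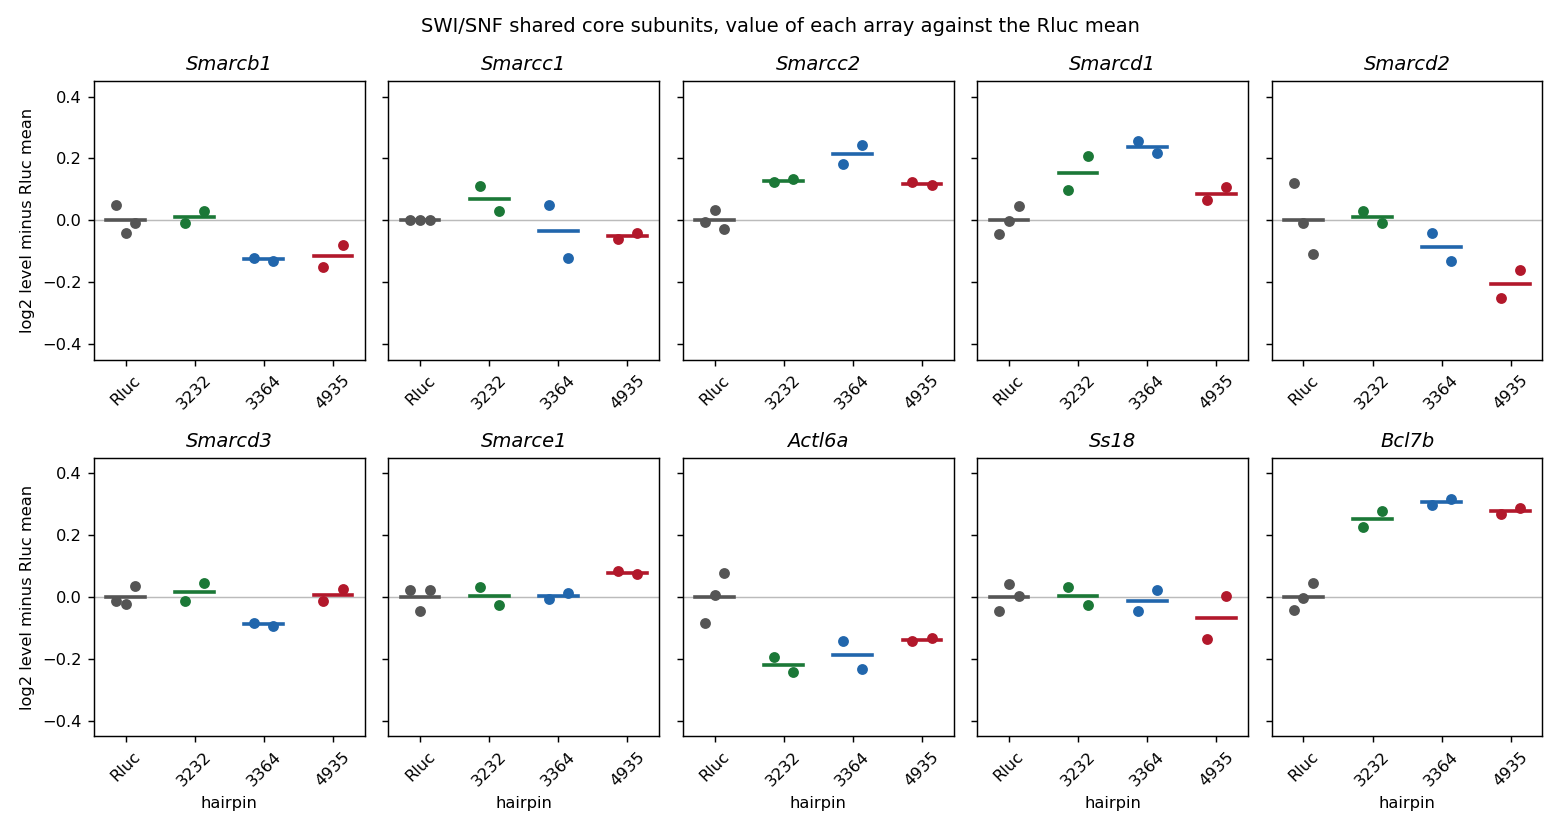
Each point is 1 array, plotted as its log2 level minus the mean of the 3 Rluc arrays for that gene, with bars at group means (3 Rluc arrays, 2 arrays for each Brg1 hairpin). All knockdown points of Bcl7b, Smarcc2 and Smarcd1 lie above the Rluc points, those of Actl6a lie below them, and the other 6 genes overlap or straddle the Rluc values.

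Bcl7b, of the BCL7 family of small SWI/SNF subunits that associate with the ATPase module, had the largest change of the 10. It stood at 11.41 and 11.46 with Brg1sh_3232, 11.48 and 11.50 with Brg1sh_3364, 11.45 and 11.47 with Brg1sh_4935, and 11.14, 11.18 and 11.23 with Rluc. The lowest knockdown array was thus above the highest control. It rose by 0.28 on the log2 scale (SE 0.04, adjusted p = 0.000362), more in absolute size than 84.7% of all genes. Taken 1 hairpin at a time, the rise was 0.25 with Brg1sh_3232 (SE 0.05, adjusted p = 0.00441), 0.31 with Brg1sh_3364 (SE 0.05, adjusted p = 0.00117) and 0.28 with Brg1sh_4935 (SE 0.05, adjusted p = 0.0022). Bcl7b was the only member called with every hairpin in the fit of all 9 arrays; 6.1% of all genes were called higher with all 3, which share the same controls.

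Actl6a, an actin-related protein that pairs with beta-actin on the ATPase, was the member that fell. Its log2 levels were 12.54 and 12.49 with Brg1sh_3232, 12.59 and 12.50 with Brg1sh_3364, 12.59 and 12.60 with Brg1sh_4935, and 12.65, 12.74 and 12.81 with Rluc. The groups did not overlap, but the gap between them, from 12.60 to 12.65, was smaller than the spread of the controls. The fall was 0.18 on the log2 scale (-0.18, SE 0.04, adjusted p = 0.0124). By hairpin the log2 changes were -0.22 for Brg1sh_3232 (adjusted p = 0.0238), -0.19 for Brg1sh_3364 (adjusted p = 0.038) and -0.14 for Brg1sh_4935 (adjusted p = 0.126). The call with Brg1sh_3232 was lost without either of its own arrays (adjusted p = 0.066 and 0.13), without Rluc replicate 2 (0.0606) and without Rluc replicate 3 (0.0611). The call with Brg1sh_3364 was lost without any 1 array other than Rluc replicate 1 (adjusted p from 0.0515 to 0.221), and that with Brg1sh_4935 was gained without Rluc replicate 1 (0.0485) or with centred arrays (0.0447). Both calls were also lost with every row tested (0.0612 and 0.076), with the replicate block (0.0855 and 0.127) and with only the groups compared in the fit (0.0734 and 0.0977), and that with Brg1sh_3364 after further quantile normalization (0.0994). Without Rluc replicate 3, the highest control, the change for the mean of the hairpins was -0.15 and was no longer called (adjusted p = 0.0538). Taking the hairpin means as 3 replicates also ended the call (adjusted p = 0.0667), as did the replicate block (-0.15, adjusted p = 0.0764). Only Rluc has a replicate 3, so the block gives that array a term of its own. The block is thus not a separate check from leaving Rluc replicate 3 out.

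Ss18, a subunit of canonical and non-canonical BAF best known from its fusion to SSX in synovial sarcoma, was not called. Its 6 knockdown arrays ran from 9.41 to 9.58 with a median of 9.54, and the Rluc arrays stood at 9.50, 9.59 and 9.55. The spread of the knockdown arrays covered that of the controls except at its top. The log2 change was -0.03 (SE 0.04, 95% interval -0.12 to 0.07, adjusted p = 0.765), an interval that holds levels from 91.7% to 105% of control.

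Of the scaffold paralogues Smarcc1 and Smarcc2, known as BAF155 and BAF170, Smarcc2 was called and Smarcc1 was not. The shift of the difference between them, given further on, did not pass (exact permutation p = 0.0714). Smarcc2 measured 11.58 and 11.59 with Brg1sh_3232, 11.64 and 11.70 with Brg1sh_3364, 11.58 and 11.57 with Brg1sh_4935, and 11.45, 11.49 and 11.43 with Rluc. All knockdown arrays were above all controls. Smarcc2 rose by 0.15 (SE 0.03, adjusted p = 0.00727). With Brg1sh_3364 alone the rise was 0.21 (adjusted p = 0.00621), and the changes of 0.13 with Brg1sh_3232 and 0.12 with Brg1sh_4935 were not called (adjusted p = 0.0648 and 0.0831). The change with Brg1sh_3232 was called with a trended and robust variance model (adjusted p = 0.0477) and without dim genes (0.0423), and that with Brg1sh_4935 was called once quantiles were normalized again (0.0373). With arrays centred on their medians the change was 0.11 and was not called (adjusted p = 0.0519). Taking the hairpin means as 3 replicates also ended the call (adjusted p = 0.0613), and the call with Brg1sh_3364 was lost without its replicate 2 (0.19, adjusted p = 0.0532).

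Smarcc1 gave 11.56 and 11.48 with Brg1sh_3232, 11.50 and 11.33 with Brg1sh_3364, 11.39 and 11.41 with Brg1sh_4935, and 11.45 on each of the 3 Rluc arrays. The knockdown arrays straddled the controls, with 3 above and 3 below. Its log2 change was -0.01 (SE 0.04, 95% interval -0.11 to 0.09, adjusted p = 0.931), and 7.41% of all genes had a smaller absolute change.

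Smarcb1 and Smarce1 complete the core around the scaffold and were not called. Smarcb1, also named SNF5, contacts the nucleosome and is lost in rhabdoid tumours. Its level was 11.59 and 11.63 with Brg1sh_3232, 11.48 and 11.47 with Brg1sh_3364, 11.45 and 11.52 with Brg1sh_4935, and 11.65, 11.56 and 11.59 with Rluc. The 4 arrays of Brg1sh_3364 and Brg1sh_4935 lay below all controls, and the 2 of Brg1sh_3232 lay among them. The log2 change was -0.07 for the mean of the hairpins (SE 0.04, adjusted p = 0.178). It was 0.01 for Brg1sh_3232 (adjusted p = 0.922), -0.12 for Brg1sh_3364 (adjusted p = 0.0907) and -0.11 for Brg1sh_4935 (adjusted p = 0.138). The difference among the hairpins was not called either (F test adjusted p = 0.198), so the position of Brg1sh_3232 apart from the others rests on array values alone.

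Smarce1, which carries an HMG box that binds DNA, was represented by its brightest probe set, 10578391. This read 12.44 to 12.55 on the knockdown arrays and 12.49, 12.42 and 12.49 on the controls. The groups overlapped, and the difference was 0.03 (SE 0.04, adjusted p = 0.676). Probe sets 10527528 and 10390768 gave changes of 0.04 (SE 0.04) and 0.06 (SE 0.05), neither called in a fit of all rows (adjusted p = 0.562 and 0.504). The RefSeq table also lists a pseudogene named Smarce1-ps1, and the annotation gives the 3 probe sets the same gene, so which probe set reports the gene and which the copy cannot be told apart here. The result was the same with each of the 3 probe sets: none was called in that fit.

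The Smarcd paralogues, known as BAF60 proteins, link the complex to transcription factors, and each complex holds 1 of them. Smarcd1 measured 10.38 and 10.49 with Brg1sh_3232, 10.54 and 10.50 with Brg1sh_3364, 10.35 and 10.39 with Brg1sh_4935, and 10.24, 10.28 and 10.33 with Rluc. The groups did not overlap, though the lowest knockdown array stood only just above the highest control. Smarcd1 rose by 0.16 (SE 0.04, adjusted p = 0.0142), with 0.24 for Brg1sh_3364 called alone (adjusted p = 0.00821). The changes with Brg1sh_3232 (0.15, adjusted p = 0.0618) and Brg1sh_4935 (0.09, adjusted p = 0.314) were not called. The rise for the mean of the hairpins was not called without Rluc replicate 1 (0.14, adjusted p = 0.0563), without Brg1sh_3364 (0.12, adjusted p = 0.0912), with arrays centred on their medians (0.12, adjusted p = 0.0686) or with 3 hairpin means in place of 6 arrays (adjusted p = 0.0961). The call with Brg1sh_3364 was lost without its replicate 1 (0.21, adjusted p = 0.0654), and that with Brg1sh_3232 was gained without its replicate 1 (0.21, adjusted p = 0.0445), after further quantile normalization (0.042) and without dim genes (0.0369).

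Smarcd2, the paralogue that granulocyte development depends on, was not called in the fit of all 9 arrays. It stood at 10.87 and 10.83 with Brg1sh_3232, 10.80 and 10.71 with Brg1sh_3364, 10.59 and 10.68 with Brg1sh_4935, and 10.96, 10.83 and 10.73 with Rluc. Its controls spread more widely than those of any other member (SD 0.11, n = 3), and 3 of the 6 knockdown arrays lay within their range. The log2 change was -0.09 (SE 0.05, adjusted p = 0.264), and with Brg1sh_4935 it was -0.21 (SE 0.07, adjusted p = 0.0667). That value was called without Rluc replicate 3 (-0.26, adjusted p = 0.0234) and with the replicate block (-0.26, adjusted p = 0.0298). The block gives that array a term of its own, so it is not a separate check from leaving the array out. The same value was called with arrays centred on their medians (-0.27, adjusted p = 0.0326). It was also called after genes of low level were left out (adjusted p = 0.0357) and with array weights (adjusted p = 0.0346).

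Smarcd3, best known from heart and muscle, was the dimmest member and the only one below the median level of all genes. Its 6 knockdown arrays ran from 6.70 to 6.84 and its controls from 6.77 to 6.83, a difference of -0.02 (SE 0.03, adjusted p = 0.741). The 2 arrays of Brg1sh_3364, at 6.71 and 6.70, lay below all controls. No detection calls were used, so a value at this level may hold little signal above background.

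**Figure D2:**
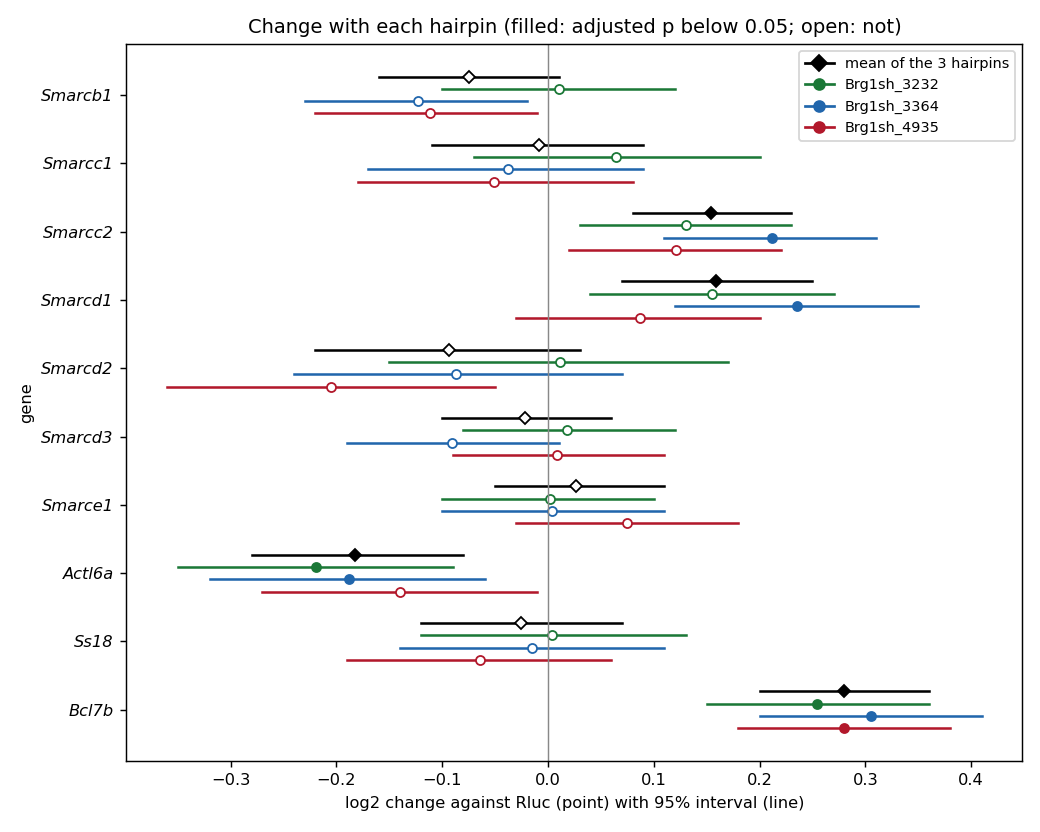
Points are log2 changes against the 3 Rluc arrays for each Brg1 hairpin (2 arrays each) and for their mean, and lines are 95% intervals of the limma fit; filled points have an adjusted p below 0.05. Bcl7b is filled in all 4 comparisons, between 0.25 and 0.31, while Smarcc2 and Smarcd1 are filled for Brg1sh_3364 and the mean only.

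For the 6 members not called in the mean of the hairpins, the intervals show which changes remain possible. Their 95% intervals ran from -0.22 at the lowest to 0.11 at the highest, and for 5 of the 10 members the whole interval lay within 0.2 of 0. The lowest bound belongs to Smarcd2, for which a fall as large as the called -0.18 of Actl6a is thus not shown to be absent. For 1 hairpin, intervals of members not called reached -0.36 (Brg1sh_4935) and 0.27 (Brg1sh_3232). Standard errors of members were 0.03 to 0.05 for the mean of the hairpins and 0.04 to 0.07 for 1 hairpin.

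By hairpin, 2 of 10 members were called with Brg1sh_3232, 1 higher and 1 lower, where 20.8% of all genes were called (9.59% higher, 11.3% lower). With Brg1sh_3364 it was 4, 3 higher and 1 lower, against 25.7% (13.6% higher, 12.2% lower), and with Brg1sh_4935 1, higher, against 22.1% (9.79% higher, 12.3% lower). The hairpins share their controls, so these counts are not independent. The 4 with Brg1sh_3364 were Bcl7b, Smarcc2, Smarcd1 and Actl6a; those with Brg1sh_3232 were Bcl7b and Actl6a. A moderated F test for differences among the 3 hairpins called 0 of 10 members by limma, against 10.5% of all genes, with a smallest adjusted p of 0.198. At an unadjusted p below 0.05 it was 0 of 10 members and 5146 of all 19937 genes. The same test with a trended and robust variance model also called 0. Of the 30 differences between pairs of hairpins, 0 were called by limma and 4 had an unadjusted p below 0.05. The share of all genes at that unadjusted threshold was not taken for these pairs, so the 4 have no background to be read against. Over all genes 9.66% were called for Brg1sh_3364 minus Brg1sh_3232, 1.02% for Brg1sh_4935 minus Brg1sh_3232 and 7.61% for Brg1sh_4935 minus Brg1sh_3364. Their 95% intervals reached from -0.39 to 0.22, so differences of that size between hairpins are not shown to be absent. For Bcl7b the differences were 0.05 (Brg1sh_3364 minus Brg1sh_3232), 0.03 (Brg1sh_4935 minus Brg1sh_3232) and -0.03 (Brg1sh_4935 minus Brg1sh_3364), with intervals between -0.14 and 0.16.

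Differences between paralogues were taken within each array, and only the change of a difference is read. In all 4 pairs were compared, with exact two-sided permutation tests over 6 knockdown and 3 Rluc arrays, for which the smallest possible p is 0.0119. These tests treat the 6 knockdown arrays as separate, though each hairpin gave 2 of them. They were not repeated with hairpin means. Smarcd1 minus Smarcd2 was -0.49 to -0.22 on the knockdown arrays and -0.72, -0.56 and -0.41 on the controls, so that 5 of 6 knockdown arrays were above all controls. The shift was 0.25 toward Smarcd1 (exact p = 0.0238, 0.0952 adjusted over the 4 pairs). By hairpin it was 0.14, 0.32 and 0.29 for Brg1sh_3232, Brg1sh_3364 and Brg1sh_4935. Leaving out each array in turn gave shifts of 0.17 (without Rluc replicate 1) to 0.33 (without Rluc replicate 3), with exact p from 0.0179 to 0.0714; the p was above 0.05 without any 1 array of Brg1sh_3364 or Brg1sh_4935 (0.0536 each) and without Rluc replicate 1 or 2 (0.0714 each).

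The difference Smarcc1 minus Smarcc2 shifted by -0.16, toward Smarcc2, from 0.01, -0.04 and 0.02 on the controls to between -0.37 and -0.02 with knockdown (exact p = 0.0714, adjusted 0.0952). Smarcd1 minus Smarcd3 was 3.56 to 3.83 with knockdown and 3.46 to 3.51 with Rluc, a shift of 0.18 with no overlap (exact p = 0.0595, adjusted 0.0952). Smarcd3 lies below the median of every array and itself changed by -0.02 for the mean of the hairpins. Mean shifts against it therefore largely restate the change of the other paralogue. With Brg1sh_3364 Smarcd3 changed by -0.09 (limma adjusted p = 0.192). There Smarcd1 minus Smarcd3 shifted by 0.33, beside a change of 0.24 for Smarcd1 alone. For Smarcd2 minus Smarcd3 the shift was -0.07 (exact p = 0.452). None of the 4 shifts passed after adjustment over the pairs.

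**Figure D3:**
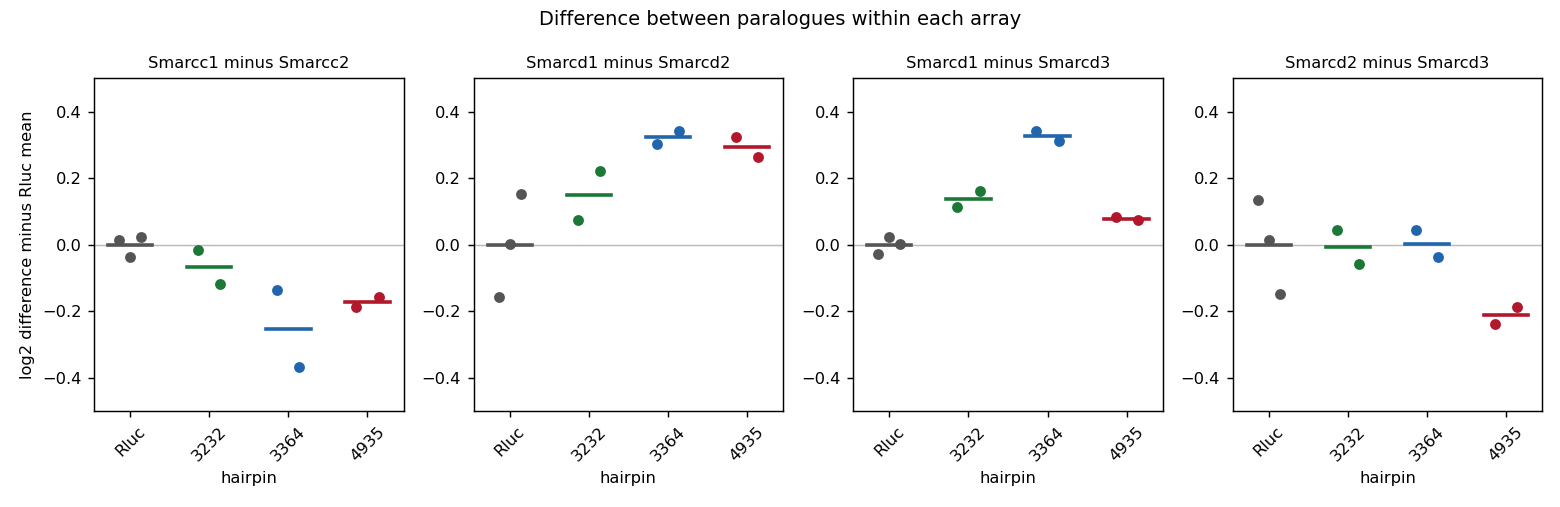
Each point is the log2 difference between 2 paralogues on 1 array, minus the mean difference of the 3 Rluc arrays; bars are group means (3 Rluc arrays, 2 per Brg1 hairpin). Smarcd1 minus Smarcd2 rises by 0.14 to 0.32 across the hairpins, and Smarcc1 minus Smarcc2 falls, with a mean shift of -0.16.

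The rest of the complex was read from a list of 21 further subunits. Of these 5 rose, 2 fell, of which 1 is the target Smarca4, and 14 were not called, with a median log2 change of 0.03. Over all genes 13.3% rose and 15% fell, 28.3% together, and 6 of the 20 subunits other than Smarca4 were called. Those that rose were Bicral, at 0.41 (SE 0.06, adjusted p = 0.000816), and Bicra, at 0.35 (SE 0.07, adjusted p = 0.00381), both of which define non-canonical BAF. The others were the DNA-binding subunits of canonical BAF, Arid1b at 0.27 (SE 0.05) and Arid1a at 0.23 (SE 0.04), and Arid2 of PBAF at 0.16 (SE 0.04, adjusted p = 0.0184). Besides Smarca4, the bromodomain subunit Brd7 of PBAF fell, by 0.17 on the log2 scale (-0.17, SE 0.04, adjusted p = 0.0139). On the arrays Bicral ran from 10.19 to 10.46 with knockdown and stood at 10.05, 9.99 and 9.77 with Rluc. Bicra ran from 9.64 to 9.87, above the controls at 9.32, 9.57 and 9.26.

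The calls of Arid2 and Brd7 were lost without Rluc replicate 3 (adjusted p = 0.0713 and 0.0603) and without Brg1sh_3232 (0.0896 and 0.0708), and with 3 hairpin means in place of 6 arrays those of Arid2, Brd7 and Bicra were (0.135, 0.124 and 0.057). With the replicate block Arid2 and Brd7 were not called (adjusted p = 0.0905 and 0.0531), and with arrays centred on their medians Arid2 was not (0.0934). The block gives Rluc replicate 3 a term of its own, so it is not a separate check from leaving that array out. Smarca4 had a log2 change of -1.01, and for the same mean of the hairpins no shared core subunit changed by more than 0.28 in either direction. The called genes were 4 of 10 in the shared core and, without the target, 6 of 20 among the other subunits, beside 28.3% of all genes, and whether the groups differ was not tested.

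**Figure D4:**
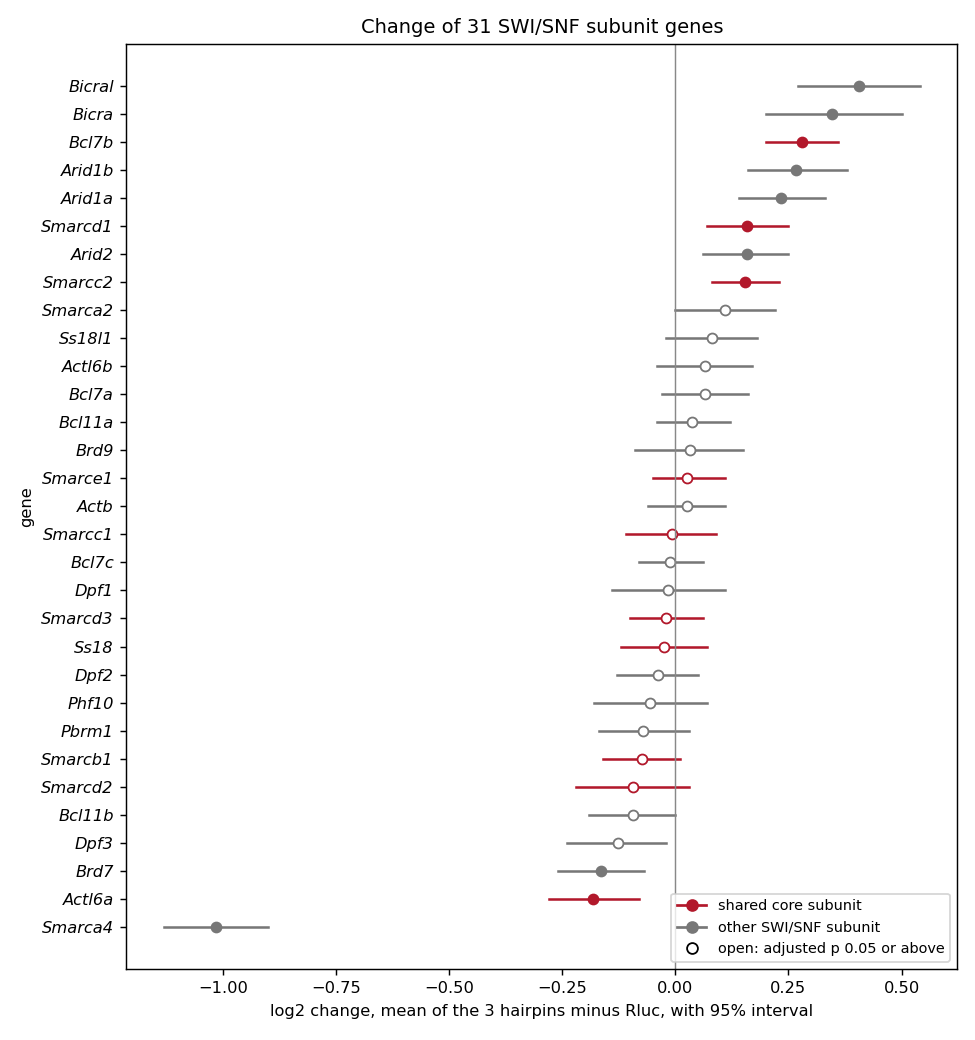
Points are log2 changes for the mean of the 3 Brg1 hairpins (6 arrays) minus Rluc (3 arrays) with 95% intervals, for the 10 shared core subunits (red) and 21 other SWI/SNF subunits (grey); open points were not called. Smarca4, the target, stands alone at -1.01, and all other subunits lie between -0.18 and 0.41.

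For each called member, the genes most alike over the 9 arrays were found by Pearson correlation across 17023 named genes, as a description only. Bcl7b was most like Plec, which encodes the cytoskeletal linker plectin (r = 0.994), and Mafg, a small Maf transcription factor (r = 0.992). Smarcc2 was most like Zfp318, a zinc finger gene (r = 0.992), and Gmip (r = 0.988). For Smarcd1 the closest were Ilvbl (r = 0.976) and Traf5, a signalling adaptor (r = 0.972). For Actl6a they were Ncbp2, of the nuclear cap-binding complex (r = 0.993), and Gspt1, a translation release factor (r = 0.992). The arrays fall into knockdown and control, so any gene that separates them scores high: 694 genes had r above 0.9 with Bcl7b, 679 with Smarcc2, 351 with Actl6a and 125 with Smarcd1.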

How the data were processed

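Each array contributes log2 values by probe set that the authors obtained by RMA (background correction, quantile normalization, probe summary), according to the deposited table and the submitters' processing notes. No software version or genome build for the array was given in the labels. Scanner data were not analysed here, so scan and slide could not be varied. Precision is limited by having 9 arrays.

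Of 34760 probe sets, 21640 had 1 symbol, 1321 several and 11799 none. Where a gene had several, the probe set brightest on average was kept, leaving 19937 genes. All 10 members matched a RefSeq gene by Entrez identifier. limma 3.58.1 in R 4.3.3 was fitted to group means of all 9 arrays (5 residual and 3.85 prior degrees of freedom). Tests were two-sided with Benjamini-Hochberg adjustment over all genes. Errors are standard errors, or SD where named.

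Named are the members, Smarca4, every other listed subunit that was called, and the 2 most correlated genes for each called member, without predicted genes, clones, small RNAs or receptor families. Members and lists were chosen with earlier results of these data known. Alternatives covered normalization, centring, dim genes, probe sets, rows tested, variance model, array weights, the replicate block, hairpin means, samples fitted and left-out arrays or hairpins.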

Additional observations from a re-analysis of the deposited data

Results flagged for a closer look

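Brd9 and Bcl7c, 2 of the 21 other subunits, differed among the 3 hairpins by the moderated F test; both are named after their values were seen. Brd9, the bromodomain subunit of non-canonical BAF, had log2 changes of -0.12 with Brg1sh_3232, 0.27 with Brg1sh_3364 and -0.06 with Brg1sh_4935 (F test adjusted p = 0.0219). Its 2 arrays with Brg1sh_3364 read 11.14 and 11.17, above the other 7, which ran from 10.68 to 10.96. Bcl7c, a relative of Bcl7b, had log2 changes of -0.01, 0.12 and -0.15 with the same hairpins in that order (F test adjusted p = 0.0138). Its arrays read 9.40 and 9.44 with Brg1sh_3364, 9.13 and 9.16 with Brg1sh_4935, and 9.27 to 9.30 elsewhere. The F test called 10.5% of all genes.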

How the results depend on the processing

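Bcl7b was called in all 21 alternatives for the mean of the hairpins (log2 change 0.24 to 0.30, adjusted p 0.000175 to 0.00845), and the 6 members not called stayed so in every alternative that tested them. Of 3 members called higher and 1 lower, 1 was called higher with arrays centred on their medians, and 1 higher and 0 lower with 3 hairpin means as replicates, where 2816 genes in all were called instead of 5635. The replicate block left 0 lower. Leaving out 1 array gave 2 to 3 higher and 0 to 1 lower (0 without Rluc replicate 3). Members called with Brg1sh_3232 were 2; they were 4 without dim genes, 3 after further quantile normalization or with a trended and robust variance model, and 1 with every row tested, with the replicate block or with only the groups compared, and 1 to 2 with 1 array left out. With Brg1sh_3364 they were 4, 3 after further quantile normalization, with every row tested, with the replicate block or with only the groups compared, and 2 to 4 with 1 array left out. With Brg1sh_4935 they were 1; they were 2 after further quantile normalization, without dim genes, with array weights or with the replicate block, 3 with centred arrays, and 1 to 2 with 1 array left out. The shift of Smarcc1 minus Smarcc2 was -0.21 without Brg1sh_3232 (exact p = 0.0286) and -0.19 to -0.12 with 1 array left out. Smarcd1 minus Smarcd2 shifted by 0.22 without Brg1sh_3364 and 0.23 without Brg1sh_4935 (exact p = 0.0857 each), and by 0.17 to 0.33 with 1 array left out. Smarcd1 minus Smarcd3 shifted by 0.22 after quantile normalization (exact p = 0.0238), by 0.11 without Brg1sh_3364 (exact p = 0.0286) and by 0.15 to 0.20 with 1 array left out. Fewer samples enter the fits that leave some out. The replicate block gives Rluc replicate 3 a term of its own, so that array does not inform the changes there either. For the other settings the cause was not tested.

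Whether replicate numbers pair the arrays was not settled. Deviations of same-numbered arrays correlated at -0.0721 to 0.249 over 12 pairs of groups' arrays. In a group of 2 arrays the deviations mirror each other, so values between 2 hairpins repeat and the 12 are not separate checks. The 2 above 0.1 were both Brg1sh_3232 with Rluc (0.19 and 0.249). With the block, 4712 genes were called instead of 5635, beside 4705 without Rluc replicate 3, the array that has its own term in the block. Groups of 2 and 3 arrays limit every comparison, and dim genes such as Smarcd3 have the least signal over background.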

Other observations

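Among paralogues of the accessory subunits, named after their values were seen, Bcl7b was the one of its family called for the mean of the hairpins. The log2 changes were 0.07 for Bcl7a (adjusted p = 0.336) and -0.01 for Bcl7c (adjusted p = 0.858), beside 0.28 for Bcl7b, and the difference between family members was not tested. With Brg1sh_4935 alone Bcl7c was called lower (-0.15, adjusted p = 0.0283). Actl6b, the neuronal relative of Actl6a, differed by 0.07 (95% interval -0.04 to 0.17, adjusted p = 0.365). Its arrays read 6.98 to 7.23 with knockdown and 6.97 to 7.06 with Rluc, below the lowest array median of 7.39. As for Smarcd3, such values may hold little signal above background. For Ss18l1, the relative of Ss18, the difference was 0.08 (95% interval -0.02 to 0.18, adjusted p = 0.269).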
